A study of Mus musculus with 2 samples.

Results

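The transcription start sites (TSSs) of long intergenic noncoding RNA (lincRNA) genes were examined for Msl1 and Nsl1 in mouse embryonic stem cells (mESCs). A GENCODE annotation of the mouse mm9 build holds 1273 genes of the type lincRNA on its chromosomes, of which 1232 lie on autosomes. Meg3 was left out by name, as Malat1 and Neat1 would have been, but neither of these carries the type lincRNA there. The remaining 1231 genes gave 1231 TSSs, the most upstream of each gene, out of 34653 TSSs of all autosomal genes, 21418 of them protein-coding. A total of 639 lay under 2 kb from an annotated protein-coding TSS and are called near, and 592 lay farther away and are called far.

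The study compared where Msl1 and Nsl1 bind in the genome of these cells by chromatin immunoprecipitation and sequencing (ChIP-seq), with 1 library per antibody. Both libraries came from wild type (wt) mESCs that the labels give as E14, passage P26, background 129P2/OlaHsd, which were grown on feeder cells, with 1 passage on gelatine without feeders where the methods call for feeder-free conditions. The Msl1 library was immunoprecipitated with a polyclonal rabbit antibody to its N-terminal part and made with the NEXTflex kit, and the Nsl1 library with an antibody to its C-terminal part and the NEBNext kit. Msl1 reads span 50 bases and Nsl1 reads 36, so antibody, kit and read length cannot be told apart. The files hold 23888517 Msl1 reads and 26084098 Nsl1 reads, of which 19483142 and 24883001 are nuclear and distinct in position and strand. With no second library per antibody no test between conditions was possible, and every interval given is an exact 95% interval that covers only counting error, of reads for a ratio and of TSSs for a share.

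Msl1 and Nsl1 are subunits of the MSL and NSL complexes, which share the histone acetyltransferase Mof. In fly and mammalian cells NSL is known from the promoters of housekeeping genes, and MSL from the bodies of active genes, where it acetylates histone H4 at lysine 16. LincRNA genes are transcribed by RNA polymerase II and spliced like coding genes, and many begin close to a coding gene's promoter on the opposite strand, since mammalian promoters are often transcribed in both directions. Some act as host genes, from whose introns small nucleolar RNAs (snoRNAs) or microRNAs are cut.

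The annotation was checked against the word intergenic. The genes have a median of 3 exons and a median length of 8312 bases, and none has a single exon. However, 573 of the 1231 TSSs lie within the bounds of a protein-coding gene, 26 of them on its own strand. Among the far TSSs these are 225 of 592. For these the word intergenic goes against the annotation, and the type lincRNA is used here as the annotation assigns it.

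The promoters of 6 far lincRNAs that stand for the patterns described are printed first, each from 250 bases before to 49 bases after the TSS. They are from the mm9 genome, on the strand of the lincRNA, with the dinucleotide CpG in capitals. Dleu2, a host of the miR-15a and miR-16-1 microRNAs, had the highest Msl1 level of the far TSSs with at least 20 reads, and its promoter spans chr14:62301113-62301412 on the minus strand. 2410006H16Rik (chr11:62416129-62416428, plus strand), a snoRNA host, and 1700020I14Rik (chr2:119419783-119420082, plus strand), also called Cyrano, were called for both proteins. 4930471M09Rik (chr6:91390799-91391098, minus strand) and Gm10492 (chr17:95233996-95234295, plus strand) had the highest Nsl1 levels. Rian (chr12:110841905-110842204, plus strand), of the imprinted Dlk1-Dio3 region, has no CpG and was called for neither.
Dleu2: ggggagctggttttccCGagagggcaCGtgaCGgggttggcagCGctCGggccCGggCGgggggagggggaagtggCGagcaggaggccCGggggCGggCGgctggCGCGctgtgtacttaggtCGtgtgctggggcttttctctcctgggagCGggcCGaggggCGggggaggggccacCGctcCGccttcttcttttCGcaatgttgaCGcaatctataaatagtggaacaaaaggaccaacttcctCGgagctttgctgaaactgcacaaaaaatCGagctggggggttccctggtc
2410006H16Rik: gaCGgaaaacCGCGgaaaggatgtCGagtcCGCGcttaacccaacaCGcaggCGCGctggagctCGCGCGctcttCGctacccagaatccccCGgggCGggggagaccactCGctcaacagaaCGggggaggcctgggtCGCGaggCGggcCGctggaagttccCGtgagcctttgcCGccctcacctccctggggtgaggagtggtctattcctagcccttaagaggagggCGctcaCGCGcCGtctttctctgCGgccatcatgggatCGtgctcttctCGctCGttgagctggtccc
1700020I14Rik: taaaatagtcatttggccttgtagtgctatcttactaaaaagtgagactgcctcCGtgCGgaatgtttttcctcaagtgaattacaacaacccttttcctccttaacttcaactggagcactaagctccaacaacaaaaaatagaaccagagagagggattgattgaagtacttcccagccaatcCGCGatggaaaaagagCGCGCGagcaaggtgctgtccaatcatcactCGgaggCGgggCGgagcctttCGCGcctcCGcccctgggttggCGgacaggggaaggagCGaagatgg
4930471M09Rik: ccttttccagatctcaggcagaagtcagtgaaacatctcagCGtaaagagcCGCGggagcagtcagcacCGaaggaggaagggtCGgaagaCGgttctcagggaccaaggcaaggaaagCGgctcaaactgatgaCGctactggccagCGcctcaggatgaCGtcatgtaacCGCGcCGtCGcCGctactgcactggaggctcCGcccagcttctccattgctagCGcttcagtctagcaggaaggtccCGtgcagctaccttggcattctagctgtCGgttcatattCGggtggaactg
Gm10492: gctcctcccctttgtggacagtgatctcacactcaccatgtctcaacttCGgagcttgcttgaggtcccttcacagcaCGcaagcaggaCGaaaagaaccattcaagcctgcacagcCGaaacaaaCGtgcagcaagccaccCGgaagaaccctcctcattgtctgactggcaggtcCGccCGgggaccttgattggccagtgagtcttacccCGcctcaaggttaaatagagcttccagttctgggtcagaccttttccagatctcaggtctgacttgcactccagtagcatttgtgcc
Rian: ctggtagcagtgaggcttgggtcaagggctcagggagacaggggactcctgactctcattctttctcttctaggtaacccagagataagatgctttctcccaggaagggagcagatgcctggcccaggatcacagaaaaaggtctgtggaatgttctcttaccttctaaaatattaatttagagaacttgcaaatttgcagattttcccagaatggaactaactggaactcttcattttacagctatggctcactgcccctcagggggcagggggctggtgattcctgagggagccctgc

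Among the near lincRNAs, the whole stretch between the TSS of the lincRNA and that of its divergent protein-coding neighbour is printed for a pair in which no annotated protein-coding exon lies between them. Snhg1, a snoRNA host, begins 127 bases from Slc3a2, a subunit of amino acid transporters (chr19:8797860-8797985, plus strand), and had one of the highest ratios of Msl1 to Nsl1. CpGs are again in capitals, on the strand of the lincRNA.
Snhg1: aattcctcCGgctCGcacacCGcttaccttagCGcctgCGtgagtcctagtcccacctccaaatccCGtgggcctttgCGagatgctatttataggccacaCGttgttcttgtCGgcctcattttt

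Msl1 and Nsl1 were both found at lincRNA TSSs, mostly where a protein-coding TSS was near. Reads were counted within 500 bases of each TSS and divided by the local level, which is the number expected there from the read density 5 to 50 kb away on both sides in the same library. A TSS was called where this ratio was at least 2 and its lower bound above 1. Msl1 was called at 565 of the 1231 lincRNA TSSs (45.9%, 43.1 to 48.7%), against 32.2% of all autosomal genes and 44.2% of the protein-coding ones. Nsl1 was called at 426 (34.6%, 31.9 to 37.3%), against 28.7% of all genes and 40.3% of the protein-coding ones. Both were called at 296 TSSs (24.0%), against 20.2% of all genes and 29.4% of the protein-coding ones, and neither at 536.

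Near lincRNA TSSs held more of both proteins than far ones. Msl1 was called at 438 of 639 near TSSs (68.5%, 64.8 to 72.1%) and at 127 of 592 far ones (21.5%, 18.2 to 25%). Nsl1 was called at 310 near (48.5%, 44.6 to 52.5%) and 116 far TSSs (19.6%, 16.5 to 23.0%). The median ratio to the local level at near TSSs was 2.51 for Msl1 and 1.95 for Nsl1, and at far TSSs 1.29 and 1.26, beside 1.86 and 1.72 over all protein-coding TSSs and 1.44 and 1.39 over all autosomal genes. The intervals of near and far shares lie apart in both libraries. With a fold of 3 the near shares were 34.7% for Msl1 and 29.6% for Nsl1, and the far order turned, with 6.59% for Msl1 and 8.11% for Nsl1. With a window of 2 kb the near shares were 54.6% and 23.2% and the far ones 9.97% and 5.24%. The medians are over the 639 near and 577 far TSSs whose local level was at least 3 reads per window, and 15 far TSSs fell below it. Of these 15, 3 were called for Msl1 and 2 for Nsl1.

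At far TSSs both shares were below those of all autosomal genes given above, and above those of a low reference. This reference was the 1427 TSSs of olfactory and vomeronasal receptor genes, which embryonic stem cells are not known to use. There Msl1 was called at 8.20% (6.83 to 9.75%) and Nsl1 at 10.9% (9.36 to 12.7%). Within the wider window of 2 kb on both sides, the summed reads over the local level were 2.10 for Msl1 and 1.67 for Nsl1 at near TSSs, and 1.26 and 1.19 at far ones. In the same window they were 1.67 and 1.50 at all protein-coding TSSs.

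Pairs of coding genes served as the closest match to the near lincRNAs. At the 3116 protein-coding TSSs with another protein-coding TSS under 2 kb, Msl1 was called at 66.9% (65.2 to 68.6%), close to the near lincRNAs, and Nsl1 at 67.1% (65.4 to 68.7%), whose interval lies above that of the near lincRNAs. This separation did not hold for the 291 near lincRNAs outside protein-coding genes (60.8%, 55.0 to 66.5%), nor for those under 250 bases from the coding TSS (64.3%, 58.9 to 69.5%). At the 3116 coding TSSs the median Msl1 ratio was 2.66 and the median Nsl1 ratio 2.96. Both TSSs of a pair can be among the 3116, often with overlapping windows, so the intervals of this group are too narrow.

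The distance to the coding TSS up to which a protein was often called was not the same for Msl1 and Nsl1. Msl1 was called at 71.6% of the 328 lincRNA TSSs under 250 bases from a protein-coding TSS, 67.2% of those from 250 to 500 bases, 73.1% of the 108 from 500 to 1000 bases and 51.3% of the 78 from 1000 to 2000 bases. Nsl1 was called at 64.3%, 51.2%, 21.3% and 15.4% in the same bins. Between 500 and 1000 bases the interval was 63.8 to 81.2% for Msl1 and 14 to 30.2% for Nsl1, and these lie apart. They cover the number of TSSs only, and the antibody, kit and read length differ as well. The counted window reaches 500 bases from the lincRNA TSS. It thus holds the coding TSS itself in the bins up to 500 bases and not beyond. The fall of the Nsl1 share at 500 bases cannot be told apart from this step of the window. Within the far class the intervals of all bins overlapped. Msl1 was called at 22.0%, 17.3%, 19.6% and 26.4% from 2 to 5 kb, 5 to 10 kb, 10 to 50 kb and over 50 kb, and Nsl1 at 15.4%, 13.3%, 21.7% and 22.7%.

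**Figure D1:**
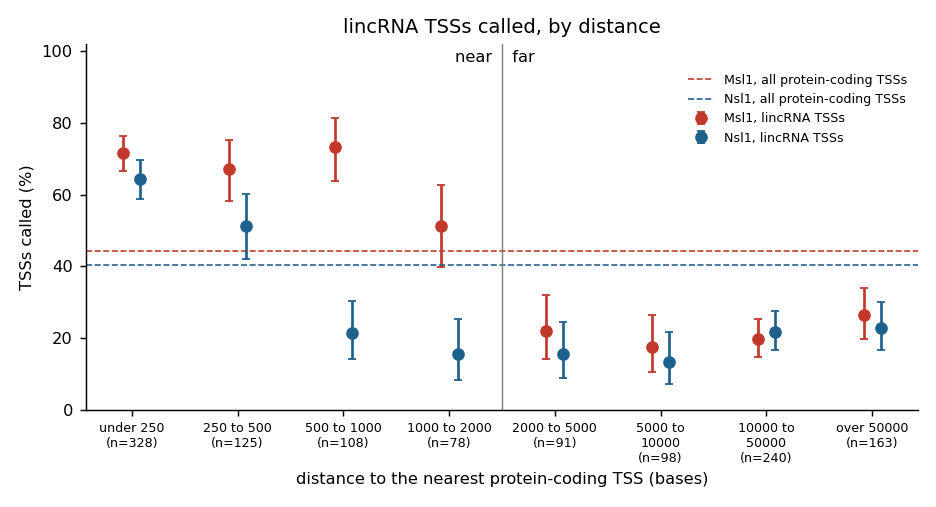
Share of lincRNA TSSs called for Msl1 (red) and Nsl1 (blue) by distance to the nearest protein-coding TSS, with exact 95% binomial intervals and dashed lines for all protein-coding TSSs. Nsl1 lies at 64.3% under 250 bases and at 21.3% from 500 to 1000 bases, where Msl1 is still at 73.1%. The counted window of 500 bases holds the coding TSS itself only in the bins up to 500 bases.

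The rule divides at 2 kb, and the TSSs on both sides of that limit show what it separated. Just inside were Gm16933 at 1910 bases from Htra4, 2210408F21Rik at 1918 bases from AB041803 and E130218I03Rik at 1930 bases from Zfp593. None was called, with Msl1 ratios of 1.07, 1.33 and 1.38 and Nsl1 ratios of 0.919, 1.63 and 0.717. Just outside were 9330158H04Rik at 2107 bases from Chrm2, with 1.18 for Msl1 and 0.730 for Nsl1, and 2 TSSs called in both libraries. These were 9930014A18Rik at 2115 bases from Fam84b, with 3.19 and 2.40, and Gm17242 at 2135 bases from Gm1568, with 3.71 and 2.04.

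The orientation of the neighbour divided the near lincRNAs further. In 368 the neighbour was divergent, so that both genes ran away from each other, and in 269 it ran head to head, so that the lincRNA began downstream of the coding TSS on the other strand and crossed it. The remaining 2 lie on the strand of the neighbour. At divergent lincRNAs Msl1 was called at 236 of 368 (64.1%) and Nsl1 at 210 (57.1%, 51.8 to 62.2%). At head-to-head lincRNAs Msl1 was called at 200 of 269 (74.3%) and Nsl1 at 100 (37.2%, 31.4 to 43.3%). These groups also differ in distance: within 250 bases of the coding TSS Nsl1 was called at 64.7% of 258 divergent and 62.9% of 70 head-to-head TSSs. From 500 to 1000 bases it was called at 29.0% of 31 and 18.2% of 77, and Msl1 at 54.8% and 80.5%, with overlapping intervals. From 250 to 500 bases Msl1 was called at 50% of 62 divergent (37.0 to 63.0%) and 84.1% of 63 head-to-head TSSs (72.7 to 92.1%), which lie apart, and Nsl1 at 51.6% and 50.8%.

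Around the divergent lincRNA TSSs the Msl1 reads lay on the side of the coding gene. In bins of 50 bases, Msl1 reached its highest level, 4.11 times the local level (3.84 to 4.40), at 600 to 550 bases upstream of the lincRNA TSS. Nsl1 was highest, at 4.47 (4.21 to 4.75), in the 50 bases before that TSS. From 500 to 2000 bases the Msl1 ratio was 1.41 downstream, within the lincRNA, and 2.59 upstream, where the coding gene lies, and the ratio of downstream to upstream reads was 0.546 (0.532 to 0.561). The Nsl1 ratio was 1.19 downstream and 1.35 upstream (downstream to upstream 0.882, 0.856 to 0.908).

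At head-to-head lincRNAs both proteins were highest downstream of the lincRNA TSS. Msl1 was highest from 200 to 250 bases downstream (3.77) and Nsl1 from 250 to 300 bases (3.15). Downstream to upstream, Msl1 was at 1.09 (1.05 to 1.12) and Nsl1 at 1.47 (1.42 to 1.52). Over all near TSSs the same ratio was 0.714 (0.700 to 0.728) for Msl1 and 1.10 (1.07 to 1.12) for Nsl1. The Nsl1 direction differed with the orientation of the neighbour (0.882 at divergent TSSs) and with the TSSs and reads taken. It turned to 0.819 (0.792 to 0.847) over the near TSSs outside protein-coding genes. That choice tends to leave out head-to-head lincRNAs, which begin downstream of the coding TSS. The ratio was 1.01 with every annotated TSS and 1.40 with all reads kept.

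Summed over the far lincRNAs, Msl1 reads lay more on their own side, for the most part at called TSSs. From 500 to 2000 bases Msl1 was at 1.30 (1.28 to 1.32) downstream and 1.12 (1.10 to 1.14) upstream, a ratio of 1.16 (1.14 to 1.19). Nsl1 was at 1.08 and 1.06 (1.02, 0.996 to 1.05). The Msl1 reads were 13105 downstream and 11253 upstream. Of these, the 181 far TSSs called in either library held 5043 and 3660, and the 14 far snoRNA hosts 867 and 196. Over all far TSSs the highest bins were from 100 to 150 bases downstream for Msl1 (1.70) and in the 50 bases before the TSS for Nsl1 (2.03). At protein-coding TSSs Msl1 was highest from 200 to 250 bases downstream (3.17) and Nsl1 in the 50 bases before the TSS (3.89). There the Msl1 reads were 1.48 times as many downstream as upstream, and 1.65 times at coding TSSs with no other coding TSS under 2 kb.

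**Figure D2:**
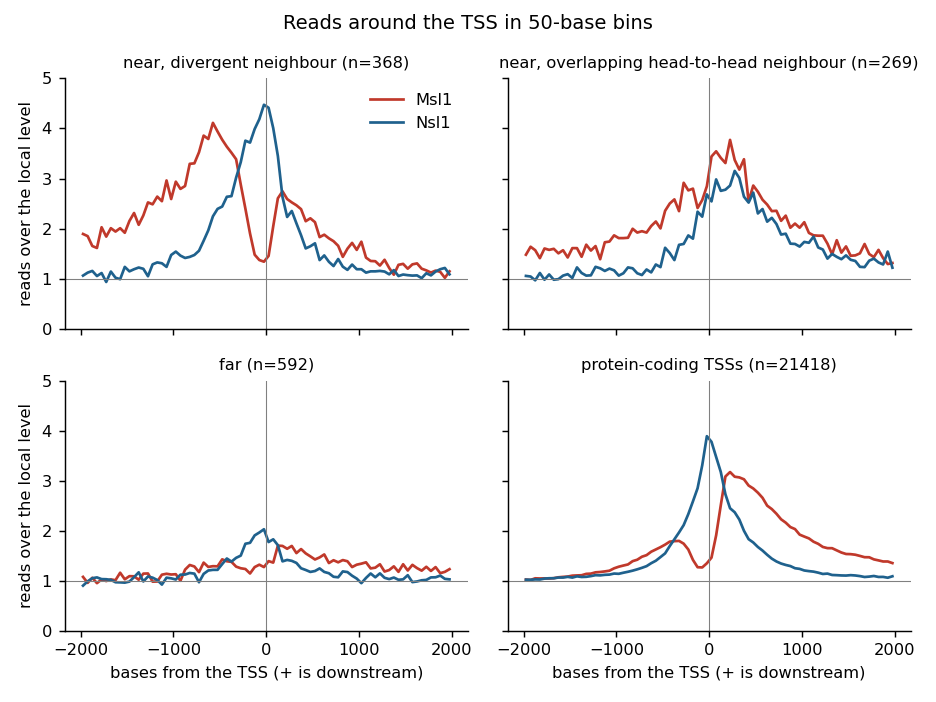
Reads of Msl1 (red) and Nsl1 (blue) over the local level in 50-base bins within 2000 bases of the TSS, on the strand of the gene, at near lincRNAs with a divergent (n=368) or head-to-head (n=269) neighbour, far lincRNAs (n=592) and protein-coding genes (n=21418). At divergent lincRNAs Msl1 reaches 4.11 upstream, on the side of the coding gene, and at far lincRNAs it stays at or below 1.70.

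At most near TSSs the windows of lincRNA and neighbour overlap and hold the same reads. Only where the TSSs lie over 1000 bases apart do they not, in 77 near lincRNAs. Msl1 was called at 40 of these lincRNA TSSs and at 47 of the coding TSSs, at 28 on both sides. The lincRNA windows held 1937 Msl1 reads and the coding windows 2153, a ratio of 0.900 (0.846 to 0.957). Nsl1 was called at 12 lincRNA and 22 coding TSSs, at 5 on both sides, with 1477 and 1701 reads (0.868, 0.809 to 0.932). Of these Nsl1 reads, 141 and 36 came from 1 pair, Gm16869 and Gm10715, where the local level was also high. Single pairs went either way. The window of Gm16912 held 111 Msl1 reads and that of Pim1, a kinase of growth signalling, 69. The window of 4930509G22Rik held 14 Msl1 reads and that of Zc3h7a 73, and for Nsl1 19 and 48. At Gm16894 and Il1r2, an interleukin receptor, Nsl1 had 52 reads at the lincRNA and 15 at the coding TSS.

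The share of far lincRNAs called was higher the richer their promoter was in CpGs. For the 300 bases printed for the examples above, the observed number of CpGs over that expected from the C and G content was taken, with classes under 0.3, 0.3 to 0.6 and over 0.6. The median was 0.741 at near and 0.314 at far lincRNAs, and 0.544 at protein-coding genes. Of the far TSSs, Msl1 was called at 6.67% of the 285 in the low class, 20.9% of the 172 in the middle class and 53.3% (44.6 to 62.0%) of the 135 in the high class. Nsl1 was called at 7.72%, 21.5% and 42.2% (33.8 to 51.0%). In the low class both shares lie near those of the receptor genes. In the high class they stayed below those of protein-coding TSSs of the same class, which were 73.3% for Msl1 and 66.0% for Nsl1.

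Near lincRNAs kept a high Msl1 share also where their own promoter was poor in CpGs. In the low class Msl1 was called at 49.3% of 71 near TSSs (37.2 to 61.4%), against 8.70% of 6957 protein-coding TSSs, and Nsl1 at 15.5% (8.0 to 26.0%) against 9.72%. At far lincRNAs of the low class the shares were 6.67% and 7.72%. In the high class of 424 near TSSs the shares were 73.3% and 58.7%.

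**Figure D3:**
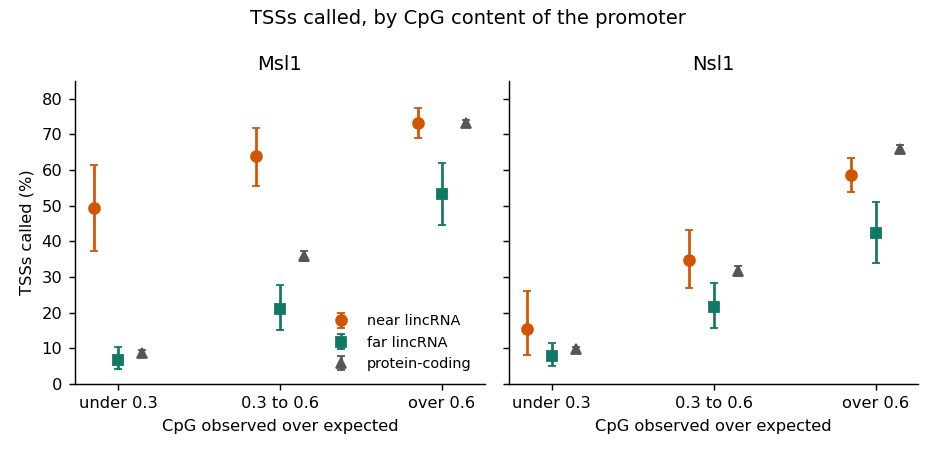
Share of TSSs called (%) for Msl1 (left) and Nsl1 (right) by CpG observed over expected of the promoter, for near lincRNAs, far lincRNAs and protein-coding genes, with exact 95% binomial intervals. Far lincRNAs go from 6.67 to 53.3% for Msl1 and from 7.72 to 42.2% for Nsl1, below the protein-coding genes of the high class.

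Far lincRNAs inside the bounds of a protein-coding gene were called less often than those outside. Outside, Msl1 was called at 98 of 367 (26.7%, 22.2 to 31.5%) and Nsl1 at 96 (26.2%, 21.7 to 31.0%). Inside, Msl1 was called at 29 of 225 (12.9%, 8.80 to 18%) and Nsl1 at 20 (8.89%, 5.51 to 13.4%). Of these 225, only 28 have a high CpG class, against 107 of those outside, and within that class the intervals overlap in both libraries (Msl1 42.9%, 24.5 to 62.8% inside and 56.1%, 46.1 to 65.7% outside). In the middle class the Msl1 intervals overlap as well, but Nsl1 was called at 28.4% outside (20.2 to 37.9%) and 9.52% inside (3.58 to 19.6%), which lie apart. Far genes with more than 1 annotated transcript were called more often, Msl1 at 35.2% of 145 and Nsl1 at 29.0%, than those with 1, at 17.0% and 16.6% of 447. Their promoters also had a higher median CpG ratio (0.404 against 0.288). Within each CpG class their shares were still the higher in both libraries, but the intervals overlap. For Msl1 they were 59.2% (44.2 to 73.0%) and 50% (39.0 to 61.0%) in the high class. In the middle class they were 34.9% (21.0 to 50.9%) and 16.3% (10.4 to 23.8%), and in the low class 13.2% and 5.17%. Whether CpG content accounts for the difference was not tested. Between autosomes, the share of all lincRNA TSSs called ran from 27.2% on chromosome 4 to 54.7% on chromosome 9 for Msl1, and from 20% on chromosome 12 to 45.3% on chromosome 5 for Nsl1.

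Short motifs were searched in the same 300 bases on both strands, and a match is a description of the letters alone. CCGGAA, the core that factors of the ETS family can bind, was in 31.9% of the near promoters called for Nsl1 and in 10.0% of the others, beside 13.3% of all autosomal promoters. For Msl1 the near shares were 20.8% and 20.4%, while at far promoters CCGGAA was in 22.0% (15.2 to 30.3%) of those called for Msl1 and in 9.89% (7.33 to 13.0%) of the others. In the far high class the Msl1 shares were 22.2% and 9.52%, with overlapping intervals. Since the motif holds a CpG, the high CpG class, of a CpG ratio over 0.6, was taken alone for Nsl1 too: there CCGGAA was in 35.7% of 249 near promoters called for Nsl1 and in 10.9% of 175 others, and in 33.3% of 57 far promoters called for Nsl1 and 3.85% of 78 others. CACGTG, an E-box, was in 19.8% of the far promoters called for Nsl1 and in 5.25% of the others (6.28% of all promoters), and in the high class in 22.8% and 8.97%, with overlapping intervals. At near promoters it was in 9.03% and 6.08%, which overlap too. GGGCGG, a GC box, was more frequent at far promoters called in either library. For Nsl1 it was in 46.6% of far promoters called and 19.3% of the others, and in 69.0% and 49.5% of near ones, with intervals apart, but in the high class the intervals overlap both at far (73.7% and 60.3%) and at near promoters (75.5% and 72%). It was in 52.8% of far promoters called for Msl1 and 17.0% of the others (31.5% of all), and in the far high class in 75% (63.4 to 84.5%) and 55.6% (42.5 to 68.1%), whose intervals overlap. At near promoters of the high class GGGCGG was in 72.0% of those called for Msl1 and in 79.6% of the others, the opposite order, with overlapping intervals. The other 5 searched were CCAAT and GATGGCG and GCATGCG and TATAAA and ATGCAAA. Of these, GCATGCG was in 9.68% of near promoters called for Nsl1 and in 1.52% of the others (3.29% of all), and GATGGCG in 6.77% and 1.52% (3.46% of all). TATAAA went the other way, in 1.94% and 8.51% (15.8% of all). The near intervals of these 3 lie apart, and those of CCAAT and ATGCAAA overlap. In the near high class GCATGCG (12% and 1.71%) and GATGGCG (8.03% and 1.71%) still lie apart, whereas TATAAA (2.01% and 6.29%) overlaps, as it does at far promoters (9.48% and 13.7%).

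In the sequences printed above, the Dleu2 promoter holds 4 matches of GGGCGG and a TATAAA whose letters begin 33 bases before the TSS. It also holds 1 match of CACGTG, 226 bases before the TSS, although Dleu2 was not called for Nsl1. Gm10492 holds a CCGGAA and a GGGCGG and 4930471M09Rik a GGGCGG, and Rian holds neither.

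Host genes of snoRNAs were nearly all called for Msl1. Of the 20 lincRNA genes with an annotated snoRNA on the same strand within their bounds, 18 were called for Msl1 (90.0%, 68.3 to 98.8%) and 11 for Nsl1 (55.0%, 31.5 to 76.9%). Rian and 2900076A07Rik were the 2 not called for Msl1. Nsl1 was called at 10 of the 14 far hosts (71.4%, 41.9 to 91.6%), beside 19.6% of all far TSSs. At near hosts it was called at 1 of 6 (16.7%, 0.421 to 64.1%), beside 48.5% of all near TSSs. The intervals of far and near hosts overlap. Over the 14 far hosts, Msl1 reads were 4.42 times as many from 500 to 2000 bases downstream as upstream (3.78 to 5.19), and Nsl1 reads 1.23 times (1.03 to 1.47). The Msl1 interval lies above that of protein-coding genes with no other coding TSS under 2 kb, at 1.65. Of the 27 lincRNAs that hold an annotated microRNA and no snoRNA, Msl1 was called at 13 (48.1%) and Nsl1 at 2 (7.41%, 0.910 to 24.3%). For the 1184 lincRNAs with neither, near and far together, the shares were 45.1% and 34.9%. Of the microRNA hosts 22 are far, and of these Msl1 was called at 40.9% (20.7 to 63.6%) and Nsl1 at 4.55% (0.115 to 22.8%). Of all far TSSs the shares were 21.5% (18.2 to 25%) and 19.6% (16.5 to 23.0%), and the intervals overlap in both libraries.

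Single host genes show the same side. 2410006H16Rik had 86 Msl1 reads within 500 bases, 4.43 times the local level (3.55 to 5.48), and 73 Nsl1 reads, 3.66 times (2.87 to 4.61). From 500 to 2000 bases it had 191 Msl1 reads downstream and 18 upstream, and 38 and 43 Nsl1 reads. Snhg7 had 62 Msl1 reads (4.98, 3.82 to 6.39) and 35 Nsl1 reads (2.47, 1.72 to 3.43), with 101 Msl1 reads downstream and 24 upstream. Snhg5 had 31 Msl1 reads (2.59) and 26 Nsl1 reads (2.48), Snhg4 43 (2.84) and 33 (2.60), and Snhg12 41 (2.31) and 30 (1.83). All of these were called for Msl1 and all but Snhg12 for Nsl1.

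Gas5 and Snhg1 are host genes with a divergent coding neighbour. Gas5, which begins 163 bases from Zbtb37, had 43 Msl1 reads (3.79, 2.74 to 5.11) and 29 Nsl1 reads (2.25, 1.51 to 3.23) and was called in both libraries. Snhg1 had 77 Msl1 reads (4.12, 3.25 to 5.15) and 24 Nsl1 reads (1.42, 0.907 to 2.11), and was called for Msl1 only. In contrast to the divergent class as a whole, the Msl1 reads of both lay within the lincRNA, 112 downstream and 29 upstream at Gas5 and 179 and 42 at Snhg1.

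Of 42 lincRNA names listed from general knowledge, 17 carry the type lincRNA on autosomes here, and only 3 of these are near. Of the 17, 12 were called for Msl1, 6 for Nsl1 and 5 for neither. For Msl1 and Nsl1 the shares were 45.9% and 34.6% of all lincRNA TSSs, and 21.5% and 19.6% of the far ones. Gas5, Rian and the Snhg genes among the 17 are snoRNA hosts given above. Dleu2 had 52 Msl1 reads (5.76, 4.31 to 7.56) and 11 Nsl1 reads (1.05, 0.526 to 1.89). Tug1, which begins 682 bases from Morc2a, had 63 Msl1 reads (4.20, 3.22 to 5.37) and 76 Nsl1 reads (4.90, 3.86 to 6.14). 1700020I14Rik (Cyrano), known for its control of the microRNA miR-7, had 39 Msl1 reads (3.65, 2.60 to 4.99) and 28 Nsl1 reads (2.46, 1.64 to 3.56). Tug1 and Cyrano were thus high in both libraries, and Dleu2 in the Msl1 library alone.

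Of 4 imprinted lincRNAs of the set, all far, 1 was called. Of all 592 far TSSs, 181 were called in either library (Msl1 at 21.5% and Nsl1 at 19.6%). The 4 are too few to be set apart from this share. Meg3, also imprinted but left out by name, is given at the end. Nespas, an antisense transcript of the imprinted Gnas locus, was called for both, with 34 Msl1 reads (2.22, 1.54 to 3.11) and 31 Nsl1 reads (2.21, 1.50 to 3.13). Airn, which silences Igf2r on the paternal chromosome, had 16 (1.27) and 12 reads (0.918), Rian 17 (1.42) and 9 (0.719), and Mirg 8 (0.789) and 14 (1.19), and none of these was called. Miat had 22 Msl1 reads (2.17, 1.36 to 3.29) and 16 Nsl1 reads (0.988), Rmst 10 (2.28, 1.09 to 4.19) and 10 (1.05), and Six3os1 19 (2.0, 1.20 to 3.12) and 17 (1.33). These 3 were called for Msl1 only, with intervals that reach well below 2. Sox2ot had 8 Msl1 reads (0.843) and 21 Nsl1 reads (1.91, 1.18 to 2.92) at its most upstream TSS, and Pvt1, downstream of Myc, 27 (1.71) and 23 (1.78), and neither was called.

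**Figure D4:**
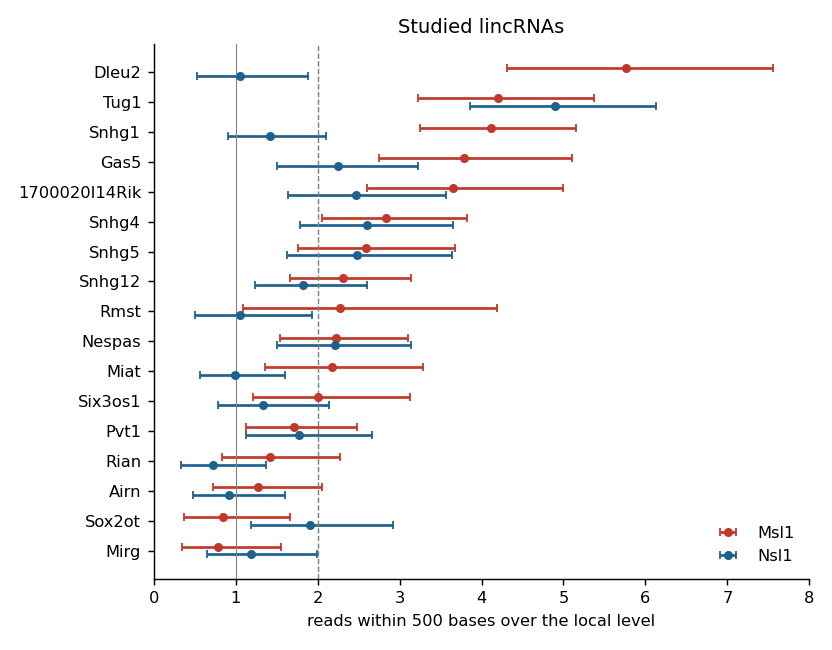
Ratio of reads within 500 bases to the local level for the 17 studied lincRNAs, Msl1 in red and Nsl1 in blue, with exact 95% Poisson intervals, a solid line at 1 and a dashed line at the fold of 2. Dleu2 is at 5.76 for Msl1 and 1.05 for Nsl1, and Tug1 at 4.20 and 4.90.

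The 5 highest of the 639 near TSSs are named for each protein. Lists this short would seldom share a member, so that they share none is no result. The 5 highest for Msl1, among those with at least 20 reads and a local level of at least 3 reads per window, were Gm16912 (111 reads, 8.46, 6.96 to 10.2), C230036H16Rik (91 reads, 8.41), Gm2694 (85 reads, 7.89), 1700034P13Rik (63 reads, 7.63) and 9530052E02Rik (82 reads, 7.09). Their neighbours are Pim1, the gene of the secreted synaptic protein Cbln1 for 2 of them, whose windows overlap, the deubiquitinase gene Vcpip1 and Irs2, an adaptor of insulin signalling. In the Nsl1 library they had 18 (1.26), 24 (1.85), 20 (1.54), 33 (3.40) and 17 reads (1.23). Only 1700034P13Rik was called there, beside 48.5% of all near TSSs.

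The 5 highest near TSSs for Nsl1 lie 62 to 175 bases from their coding neighbour. They were 4930455D15Rik (169 reads, 20.5, 17.5 to 23.8), Gm6288 (156 reads, 17.4), Gm16023 (251 reads, 16.6), Gm15535 (162 reads, 15.7) and Gm17249 (184 reads, 15.2). The neighbours are Wdr36, of ribosome biogenesis, Ccdc91, the kinase gene Cdk11b, Pet112l, of a mitochondrial amidotransferase, and Polr3b, a subunit of RNA polymerase III. In the Msl1 library these TSSs had 52 (6.09), 39 (6.48), 32 (1.998), 21 (2.45) and 30 reads (2.33). All but Gm16023, just under the fold of 2, were called there, beside 68.5% of all near TSSs. The windows of lincRNA and neighbour hold mostly the same reads here, so the reads cannot be assigned to either gene.

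Among far TSSs the highest Nsl1 levels exceeded the highest Msl1 levels. For Msl1 the 5 highest were Dleu2 (5.76), Snhg7 (4.98), 2410004N09Rik (54 reads, 4.81), Fam150a (26 reads, 4.57) and 2410006H16Rik (4.43). For Nsl1 they were 4930471M09Rik (247 reads, 18.9, 16.7 to 21.5), Gm10492 (109 reads, 12.4, 10.2 to 14.9), 4930547M16Rik (104 reads, 9.81), 1810014B01Rik (68 reads, 7.31) and Gm4262 (107 reads, 7.31). The snoRNA host 9330159M07Rik and its divergent neighbour Gm17694, whose windows overlap, each had 21 Nsl1 reads and a ratio of 10.8 (6.68 to 16.5). Their local level was 1.95 reads, and so they were not ranked. 9330159M07Rik also had an Msl1 ratio of 6.74 (3.48 to 11.8) from 12 reads, above that of Dleu2. In the Msl1 library the 5 named for Nsl1 had 27 (2.02), 32 (4.07), 27 (2.72), 33 (4.04) and 18 reads (1.50), and all but Gm4262 were called. Gm4262 has a CpG ratio of 0.18 and lies inside a protein-coding gene, unlike the other 4. Ratios of 5 or more were found at 1 far TSS for Msl1 and 13 for Nsl1, and at 52 near TSSs for Msl1 and 78 for Nsl1, counted where the local level was at least 3 reads.

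The ratios of the 2 libraries had a higher correlation at far than at near lincRNAs. On the log2 scale, Pearson's r between the ratios of Msl1 and Nsl1 was 0.66 over 577 far TSSs and 0.28 over 639 near ones, with Spearman's rho of 0.51 and 0.21. For these values 1 was added to the reads and to the local level, so that TSSs with no reads are included. Over the 564 far and 636 near TSSs with a read in both libraries, and with nothing added, r was 0.50 and 0.24 and rho 0.47 and 0.20. These describe TSSs within a pair of libraries that share base composition and mappability, and not replicates. The spread of the log2 Msl1 ratio was also wider at far TSSs (SD 0.91) than at near ones (SD 0.78), and 0.85 and 0.80 over the TSSs with a read in both. Of the near TSSs called for Nsl1, 75.5% were also called for Msl1, beside 68.5% of all near TSSs. Of those called for Msl1, 53.4% were also called for Nsl1, beside 48.5% of all near TSSs. For far TSSs the shares were 53.4%, beside 21.5% of all far TSSs, and 48.8%, beside 19.6%. For protein-coding ones they were 73.0%, beside 44.2%, and 66.6%, beside 40.3%. The calls in common thus lay closer to the share of all TSSs at near than at far lincRNAs.

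**Figure D5:**
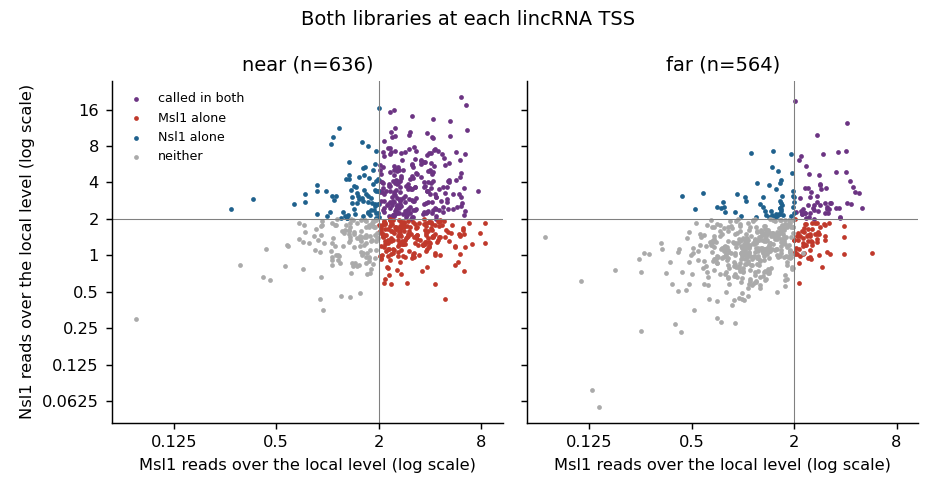
Ratio to the local level in the Msl1 library (x) and the Nsl1 library (y), both on log scales, for 636 near and 564 far lincRNA TSSs with a local level of at least 3 reads and a read in both libraries. Lines mark the fold of 2, and most near points lie to the right of it, with a median of 2.51 for Msl1.

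Per library read, the sum over lincRNA TSSs held more Msl1 than Nsl1 reads within 2 kb, as did the sum over all autosomal genes. This ratio is not divided by the local level. The summed ratio was 1.39 (1.38 to 1.41) at near and 1.19 (1.17 to 1.21) at far TSSs, beside 1.23 at protein-coding ones and 1.20 at all autosomal genes. It was below 1 at the receptor genes (0.905, 0.892 to 0.918) and at protein-coding TSSs of the low CpG class (0.992, 0.987 to 0.997). Within 500 bases and over the local level the order was the opposite, with summed ratios of 2.65 for Msl1 and 2.73 for Nsl1 at near TSSs and 1.43 and 1.55 at far ones. Among 987 TSSs whose windows held 100 reads or more over both libraries, the median was 1.35, from 1.02 at the lower to 1.75 at the upper quartile. The highest were Gm16912 (5.70, 4.40 to 7.48), Mir706, which begins 1188 bases downstream of the start of the kinase gene Wnk1 (5.60, 4.09 to 7.81), and Snhg1 (5.21, 4.02 to 6.83). The lowest were Gm14455, 4 bases from 2410001C21Rik (0.272, 0.193 to 0.377), Gm16244 near Hps1 (0.330, 0.213 to 0.497) and 4930471M09Rik (0.331, 0.255 to 0.426). Gm14455 had 149 Nsl1 reads within 500 bases (11.3, 9.56 to 13.3) and 12 Msl1 reads (1.17, 0.605 to 2.05).

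Near lincRNAs beside genes of developmental transcription and signalling factors were rarely called for Nsl1, while their Msl1 share overlapped that of the other near lincRNAs. The families (Sox, Fox, Hox, Lhx, Tbx, Wnt, Fgf and others) were listed after the overall results had been seen, and took in 37 near lincRNAs. Msl1 was called at 24 of them (64.9%, 47.5 to 79.8%) and Nsl1 at 4 (10.8%, 3.03 to 25.4%). At the 602 other near lincRNAs the shares were 68.8% (64.9 to 72.5%) and 50.8% (46.8 to 54.9%). Among those under 500 bases from the coding TSS, Nsl1 was called at 2 of 20 beside such factors (10.0%, 1.23 to 31.7%) and at 63.0% of the 433 others. From 500 bases on the shares were 11.8% of 17 and 19.5% of 169, whose intervals overlap.

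The 4 called for Nsl1 were Gm17444 beside Pou2f1 (31 reads, 2.68, 1.82 to 3.8), Gm15050 beside Hoxa3 (34 reads, 2.27), Gm12541 beside Fgf2 (21 reads, 2.13) and Gm17682 beside Klf16 (39 reads, 2.12).

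Of those not called for Nsl1, 5 are given as examples. Gm4675, 144 bases from Sox21, had 39 Msl1 reads (5.58, 3.97 to 7.63) and 14 Nsl1 reads (1.16, 0.637 to 1.95). Foxl2os had 36 Msl1 reads (3.58) and 9 Nsl1 reads (0.738), and 1110050K14Rik beside Foxf1a 42 (3.16) and 16 (1.02). Emx2os, 55 bases from Emx2, had 11 reads in both libraries (1.69 and 0.969), and Hoxa11as 19 (1.15) and 14 (1.01), and neither was called. These 5 were picked after their values had been seen.

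Depth set how firmly single TSSs could be called. The local level gave a median of 10.6 Msl1 and 12.5 Nsl1 reads per window at near TSSs, and 11.2 and 13.0 at far ones. A further 129 TSSs for Msl1 and 156 for Nsl1 had a lower bound above 1 and a ratio under 2, and were not counted as called. No reads were found at 20 far TSSs for Msl1 and 19 for Nsl1, for which the 1-sided 95% limit is 3 reads each. At Gm16869 the local level was 44.1 Nsl1 reads per window, the highest of the near TSSs.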

How the data were processed

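Single-end ChIP-seq libraries from wild type mESCs were used, 1 for Msl1 and 1 for Nsl1. According to the submitters' processing notes, reads were processed with CASAVA 1.8.2 and Bowtie 0.12.7 on mm9. The authors deposited 1 line per aligned read with position, strand and an alignment score, and this score is 255 on every line, so it served as no measurement. Reads that repeated a position and strand, 18.3% for Msl1 and 4.56% for Nsl1, were counted once, mitochondrial reads were dropped, and each read was moved to the middle of its library's fragment length (206 bases for Msl1, 129 for Nsl1, from the strand cross-correlation). The Input used by the study was not analysed here.

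Genes came from GENCODE M1 and bases from the NCBIM37 (mm9) genome. Positions are counted from 1. Nearness was measured to every annotated TSS of a protein-coding transcript. The window holds 1001 bases, and the local level counts known bases only. The ratio interval treats the local level as fixed. Ratios of downstream to upstream reads, called side ratios, and of Msl1 to Nsl1 reads have exact binomial intervals on the 2 counts. Shares have exact binomial intervals, which take the TSSs as independent, although 20 lincRNA TSSs lie within 1 kb of another. Among coding TSSs with another under 2 kb, both TSSs of a pair can be counted. The share of repeat-masked bases could not be given, since the genome used has no masked bases. Counts and intervals were made in Python (3.11.15) using scipy (1.17.1), pandas (2.3.3) and numpy (2.4.6), plots with matplotlib (3.10.9), and the counting was tested on simulated data.

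The members and lists were chosen with earlier results of these data known. Named were the known lincRNAs of a fixed list, the 5 highest ratios per library and class with at least 20 reads and a local level of at least 3 reads, the 3 at each end of Msl1 to Nsl1 with at least 100 reads, and the members of groups described. The alternatives covered repeated reads, the shift, depth, window, local level, fold, limits of nearness and choice of TSSs.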

Additional observations from a re-analysis of the deposited data

How the results depend on the processing

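In all, 142 values of 14 results were recomputed, of which 94 stayed within the main interval. Near shares and medians exceeded far ones under every alternative run. With only 1 library per antibody, leaving out a library or pairing was not possible, and depth limits single TSSs, where about 11 to 13 reads were expected by the local level.

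Keeping all reads gave downstream to upstream ratios at near TSSs of 0.758 for Msl1 and 1.40 for Nsl1 and a summed Msl1 to Nsl1 ratio of 1.29. With near and far divided at 1 kb, near TSSs had an Nsl1 share of 53.1% and median of 2.15, side ratios of 0.644 (Msl1) and 1.06 (Nsl1) and a summed ratio of 1.37, and far TSSs side ratios of 1.20 and 1.07 and a summed ratio of 1.25. Divided at 5 kb, near TSSs had shares of 62.7% and 44.4%, medians of 2.38 and 1.84 and an Msl1 side ratio of 0.756, and far TSSs a summed ratio of 1.16. With every annotated TSS of the genes, the near side ratios were 0.697 and 1.01 and the far summed ratio 1.21.

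With a window of 2 kb the near shares were 54.6% (Msl1) and 23.2% (Nsl1) and the far ones 9.97% and 5.24%, with near medians of 2.06 and 1.52 and a far Nsl1 median of 1.14. With a fold of 3 the near shares were 34.7% and 29.6% and the far ones 6.59% and 8.11%. Summed within 500 bases, Msl1 to Nsl1 was 1.08 at near and 1.04 at far TSSs. From 0 to 1000 bases, the near side ratios were 0.863 and 1.01, and the far Nsl1 ratio turned to 0.931. Thinning Nsl1 to the Msl1 depth, unshifted reads, a local level from 10 to 50 kb and no filter on it moved no value out of its interval.

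The next alternatives, and the correlation with nothing added and the transcript numbers within CpG classes given above, were chosen after seeing the data. With 1 TSS per protein-coding gene the Msl1 side ratios were 0.698 (near) and 1.14 (far) and the far summed ratio 1.22. With only TSSs outside protein-coding genes, the near Nsl1 share was 60.8% with a median of 2.61, the near side ratios were 0.495 (Msl1) and 0.819 (Nsl1, turned), the far shares 26.7% and 26.2% with medians of 1.42 and 1.44, and the far summed ratio 1.13. The causes of these shifts were not tested.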

Other observations

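LincRNA genes on the X chromosome lie outside the set described, which holds autosomes only. Of 41 lincRNA TSSs there, 23 were called for Msl1 and 18 for Nsl1 (on autosomes 45.9% and 34.6% of lincRNA TSSs), with a median ratio of 2.49 and 1.93 over the 39 whose local level was at least 3 reads per window. The local level on the X gave a median of 5.14 Msl1 and 5.82 Nsl1 reads per window, and the cells are male.

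Meg3, a maternally expressed imprinted lincRNA that was left out by name, had 27 Msl1 reads within 500 bases of its TSS (2.06, 1.36 to 2.99) and 7 Nsl1 reads (0.524, 0.211 to 1.08). It would have been called for Msl1 and not for Nsl1.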
